A study of Mus musculus with 6 samples.

Results

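Matrix metalloproteinase genes and the genes of their tissue inhibitors (TIMPs) were followed in the diseased bone marrow of 6 mice, each hybridised to its own mouse whole-transcript gene array. The 10 genes, of 19938 measured, are Mmp2, Mmp8, Mmp9, Mmp13, Mmp14, Mmp19, Mmp25, Timp1, Timp2 and Timp3, and each was taken from the probe sets that carry its symbol and no other. The set was chosen from the gene family with Mmp8 at its head, because Mmp8 differs widely between these same arrays, so that its values are a description and the test quoted beside it is no independent support. In 3 mice, HoxA9AA/Meis1, the donor cells carried Meis1 and HoxA9AA, a form of the homeobox gene HoxA9 that the labels do not describe further. In the other 3 mice, HoxA9wt/Meis1, they carried Meis1 and wild-type HoxA9. All 6 mice shared the rest of the design: CD45.2+ LSK cells, a fraction of stem and progenitor cells, were transduced with Meis1 and a HoxA9 construct labelled with GFP and given to lethally irradiated CD45.1+ recipients, whose marrow was taken when disease began. The labels name bone marrow cells and no sort for donor cells, so that RNA of recipient cells may be part of each sample. No age or strain is given in the sources used here.

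Matrix metalloproteinases are zinc-dependent enzymes that cut collagens, proteoglycans and other proteins around cells. They are made as inactive precursors, and TIMPs block the active enzymes by binding to the zinc site. In marrow, neutrophils pack Mmp8 (neutrophil collagenase) and Mmp9 (gelatinase B) into granules during maturation, while stromal cells, macrophages and osteoclasts are known sources of several others.

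Values are log2 expression (1 unit is a doubling), and every difference is HoxA9AA/Meis1 minus HoxA9wt/Meis1. As a measure of background, the 95th percentile of 1027 olfactory receptor genes was taken, which lay between 6.52 and 6.72 on the 6 arrays. The median of all probe sets lay between 6.73 and 6.85. Primary granule genes of immature neutrophils were bright in all 6 marrows, with a mean over 10 genes of 10.39 to 11.57 in HoxA9AA/Meis1 and 10.09 to 10.69 in HoxA9wt/Meis1, while the mean over 10 B cell genes was 6.48 to 6.52 and 6.24 to 6.34. By limma, no gene had an adjusted p under 0.05 (0 of 19938 genes, or 0%, with a smallest adjusted p of 0.731), and 1344 genes had an unadjusted p under 0.05. None of the 10 genes passed. Without an adjustment, 3 of them had a p under 0.05, 2 towards higher values (background over all genes 4.15%) and 1 towards lower values (2.59%). For 2 of the 10 genes all HoxA9AA values lay above all HoxA9wt values (6.6% of all genes did so), for 1 they all lay below (4.8% of all genes), and for 7 the groups overlapped.

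Mmp8, whose collagenase cuts fibrillar collagen, was bright in all HoxA9wt/Meis1 marrows and in only 1 HoxA9AA/Meis1 marrow. It measured 8.07, 11.44 and 6.07 in HoxA9AA replicates 1, 2 and 3, against 11.70, 12.49 and 12.00 in HoxA9wt replicates 1, 2 and 3. The groups did not overlap, but HoxA9AA replicate 2 stood 0.26 below the lowest HoxA9wt mouse, while HoxA9AA replicate 3 lay below the background limit of its array. Relative to the HoxA9wt mean, the 3 HoxA9AA mice stood at −3.99, −0.62 and −5.99. The means were 8.53 ± 2.71 in HoxA9AA/Meis1 and 12.06 ± 0.40 in HoxA9wt/Meis1 (SD, n = 3 each). This is a difference of −3.54 ± 1.24 (SE; limma, adjusted p = 0.731), or an 11.6-fold lower geometric mean at the measured values. Only 2 of the 3 HoxA9AA arrays were above background, and with HoxA9AA replicate 3 set to its background limit, an alternative added after the data were seen, the difference was −3.39 and Mmp8 at least 10.5-fold lower. At the measured values it was the lowest difference of all 19938 genes, and the SD of Mmp8 among the HoxA9AA mice ranked 3 from the top. Without HoxA9AA replicate 3 the difference was −2.31, so that this mouse moved it by over 1.5 times. Fewer cells with the transcript and less of it per cell cannot be told apart in bulk marrow.

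The genes nearest to Mmp8 in their pattern over the 6 arrays were genes of receptors, lectins and surface or matrix proteins, not of the best-known neutrophil granule proteins. Nearness was measured as the root mean square distance between values centred on each gene's own mean. The 8 nearest named genes were the lectin-like receptor gene Klra2 and the fibronectin gene Fn1 (distance 0.39 each), Ms4a4a (0.66), the C-type lectin gene Clec4a1 (0.67), the ectoenzyme gene Bst1 (0.74), the lipid transporter gene Abca9 (0.81), the scavenger receptor gene Msr1 (0.88) and the lectin gene Clec4a3 (0.92). Fn1 measured 9.58, 12.53 and 7.54 in HoxA9AA replicates 1, 2 and 3, against 12.49, 12.90 and 12.77 in the HoxA9wt mice. For Fn1, as for Mmp8, HoxA9AA replicate 3 was lowest and replicate 2 stood close to the HoxA9wt values, whereas Clec4a3 was lowest in HoxA9AA replicate 1. The 8 genes were picked for their likeness, so that their own differences give no support to that of Mmp8.

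Late neutrophil granule genes were mostly lowest either in HoxA9wt replicate 3, where Mmp8 was bright, or in HoxA9AA replicate 3, where Mmp8 was lowest too. Of 23 late granule and maturation genes, 12 had a higher and 11 a lower mean in HoxA9AA/Meis1 (median difference 0.13, against 0.01 over all genes). That median depended on single mice, being −0.03 when HoxA9AA replicate 1 or 2 was dropped and 0.48 when HoxA9AA replicate 3 was. Dropping HoxA9wt replicate 2 gave 0.60, and dropping HoxA9wt replicate 3 gave −0.16. The array with the lowest value was HoxA9wt replicate 3 for 12 of these genes, HoxA9AA replicate 3 for 10 and HoxA9AA replicate 1 for 1. Over all genes, 10.4% were lowest in HoxA9wt replicate 3 and 20.1% in HoxA9AA replicate 3. Ngp, a neutrophil granule protein gene, measured 12.42, 12.37 and 11.69 in HoxA9AA replicates 1, 2 and 3, against 12.02, 12.34 and 8.25 in HoxA9wt replicates 1, 2 and 3. HoxA9wt replicate 3 was thus low in Ngp and bright in Mmp8, and HoxA9AA replicate 1 the other way round. The lactoferrin gene Ltf measured 7.93, 8.45 and 7.23 against 8.82, 9.77 and 5.73, again lowest in HoxA9wt replicate 3. The 6 members of the list nearest to Mmp8 were the decoy interleukin 1 receptor gene Il1r2, Mcemp1, Chil3, the lysozyme gene Lyz2, the haptoglobin gene Hp and the annexin gene Anxa1, at distances of 1.29 to 2.09, with Il1r2 at rank 18 and Anxa1 at rank 572 of all genes by likeness. Camp, the cathelicidin gene, stood at rank 18618 and Ngp at 19866. The ranks of granule genes were spread, with Lcn2 at 3247 and Ltf at 6988, but S100a8 at 19726 and Retnlg at 19911.

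The mean level of monocyte and macrophage genes was lowest in the same pair of mice as Mmp8. The mean over 19 such genes was 8.15, 9.24 and 8.41 in HoxA9AA replicates 1, 2 and 3, against 9.70, 9.08 and 9.35 in HoxA9wt replicates 1, 2 and 3, so that the groups overlapped. Of the 19 genes, 17 had a lower mean (median difference −0.58), as had 9251 of all 19938 genes. The other 2 were C1qc (0.10), highest in HoxA9AA replicate 3, and Vcam1 (1.28). Of the 19, 12 were above background on all 6 arrays and 0 on none. HoxA9AA replicate 1 held the lowest value for 11 of them and HoxA9AA replicate 3 for 5 (20.2% and 20.1% of all genes). The list includes Msr1 and Clec4a3, picked above for their likeness to Mmp8. The part of these 19 genes in the Mmp8 values was not tested. The late granule list, at 9.88, 9.98 and 8.69 against 9.55, 10.01 and 8.33, was lowest in HoxA9wt replicate 3 and next in HoxA9AA replicate 3.

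**Figure D1:**
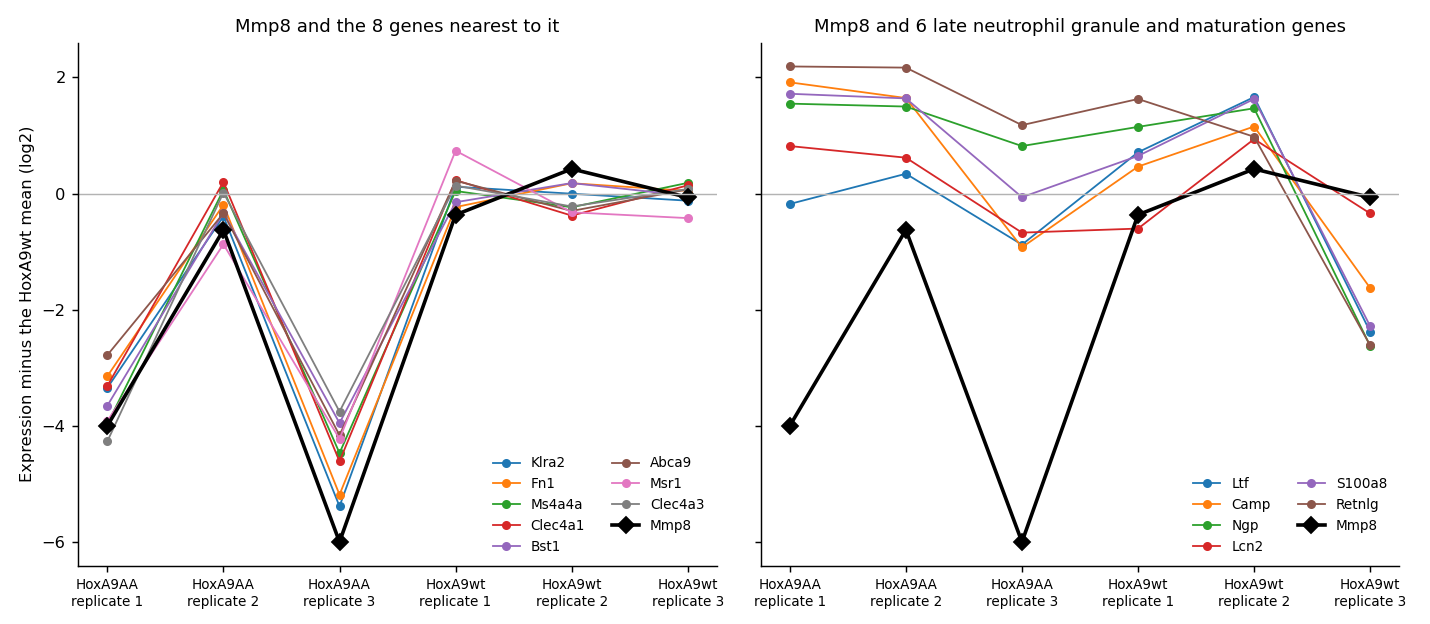
Expression minus each gene's HoxA9wt mean (log2, vertical axis) on the 6 arrays (horizontal axis, HoxA9AA/Meis1 left); lines join the values of 1 gene and imply no order. Mmp8 (black) stands at −3.99, −0.62 and −5.99 in the HoxA9AA mice next to its 8 nearest genes on the left. On the right are Ngp and 5 other granule and maturation genes, chosen after their values were seen. All but Lcn2 are lowest in HoxA9wt replicate 3, while Lcn2 is lowest in HoxA9AA replicate 3 (10.28, against 10.61 in HoxA9wt replicate 3).

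Upstream of its RefSeq start, Mmp8 is shown with Mmp13, the other collagenase gene among the 10, because both lie on chromosome 9 and only Mmp8 was bright. The 250 bases before the start are at chr9:7558179-7558428 for Mmp8 and chr9:7272264-7272513 for Mmp13 (GRCm38.p6, plus strand, RefSeq). Capitals mark matches on either strand to TGACAG (bound by Meis-type TALE factors), to TTGCNNAA (a C/EBP form), to GGAAGT (an ETS core), to TGANTCA (AP-1) or to TATAAA. The matches did not overlap.
Mmp8: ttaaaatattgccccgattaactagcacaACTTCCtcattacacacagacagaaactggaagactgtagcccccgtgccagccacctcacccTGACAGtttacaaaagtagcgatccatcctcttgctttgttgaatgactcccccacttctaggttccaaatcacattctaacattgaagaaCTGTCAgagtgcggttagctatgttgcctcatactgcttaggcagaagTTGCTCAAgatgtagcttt
Mmp13: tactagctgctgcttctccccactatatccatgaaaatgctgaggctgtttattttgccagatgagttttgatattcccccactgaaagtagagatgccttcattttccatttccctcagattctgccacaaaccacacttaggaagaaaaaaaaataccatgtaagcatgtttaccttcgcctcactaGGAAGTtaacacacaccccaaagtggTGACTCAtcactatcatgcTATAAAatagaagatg
Mmp8 held TGACAG at positions −158 to −153 and, on the minus strand, at −67 to −62, counted back from the start. Of all 32851 promoter windows of this length, 15.9% held it at least once. The TTGCNNAA match of Mmp8 at −19 to −12 was of a kind found in 9.56% of windows, and its GGAAGT match in 19.7%. Mmp13 held TGANTCA at −35 to −29 (6.75% of windows), TATAAA at −16 to −11 (12.4%) and GGAAGT. A composite Pbx-Hox form, TGATTNAT, was in none of the 7 promoters that matched (2.82% of all windows). The motifs were chosen after the sequences had been seen, and a match is a description of letters.

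Most genes beside Mmp8 were too dim to show whether they follow it. Of the 5 measured genes on each side, 6 of 10 were above background on no array, 2 on some and 2 on all. Their median difference was −0.02, which mostly dim probe sets hold near 0, and relative to the HoxA9wt mean the neighbours had medians of −0.06, −0.10 and 0.03 in HoxA9AA replicates 1, 2 and 3. Mmp13, which lies outside these 10, is collagenase 3 of cartilage and bone and measured 6.31, 6.37 and 6.03 in HoxA9AA/Meis1 and 7.08, 6.27 and 6.63 in HoxA9wt/Meis1. It was above background on 2 arrays, both of HoxA9wt mice, and the groups overlapped (difference −0.42 ± 0.21, SE; limma, adjusted p = 0.746). The difference was −0.21 without HoxA9wt replicate 1, the mouse with the highest value.

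Mmp27, the gene next to Mmp8, was the only one of the 10 neighbours with an unadjusted p under 0.05 (0.00704; limma, adjusted p = 0.731). Of all genes, 2.59% had one towards lower values. Mmp27 measured 5.81, 5.92 and 5.80 in HoxA9AA/Meis1 and 6.24, 7.01 and 6.53 in HoxA9wt/Meis1, and only HoxA9wt replicate 2 was above background. All 3 HoxA9AA mice were alike here, including replicate 2, where Mmp8 was bright. Mmp12, the macrophage elastase gene, stood alone at 8.86 in HoxA9AA replicate 3, against 6.23 and 6.12 in replicates 1 and 2 and 6.09 to 7.03 in the HoxA9wt mice. Tmem123 and Birc2, the only 2 of the 10 above background on all arrays, differed by 0.01 and −0.10.

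**Figure D2:**
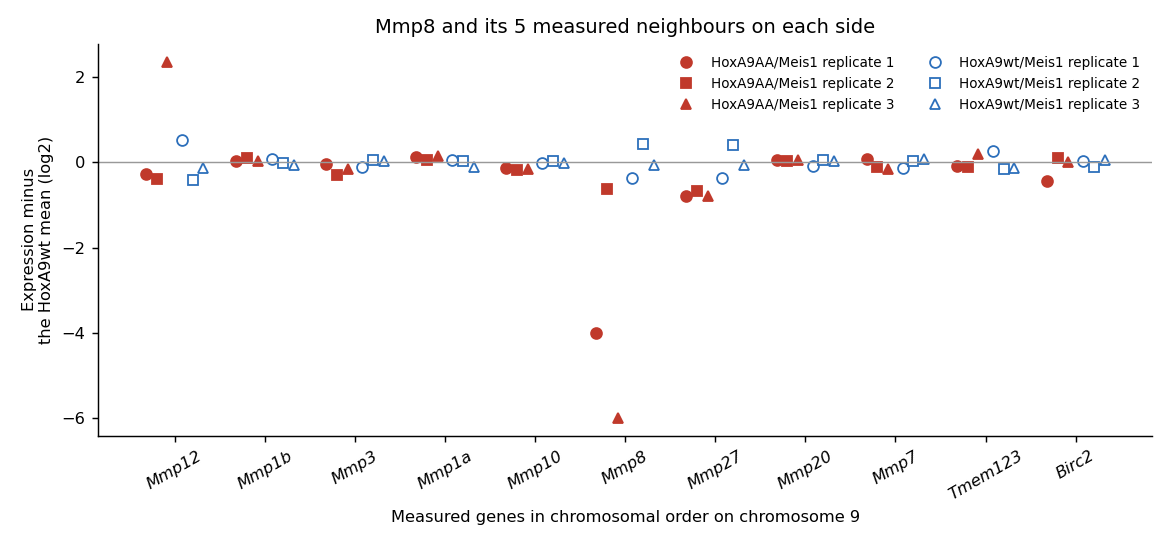
Expression minus the HoxA9wt mean (log2, vertical axis) for Mmp8 and its 5 measured neighbours on each side in chromosomal order (horizontal axis); filled symbols are HoxA9AA/Meis1 mice and open symbols HoxA9wt/Meis1 mice. Mmp8 stands apart in HoxA9AA replicates 1 and 3, at −3.99 and −5.99; 6 of the 10 neighbours were above background on no array, and a dim gene has little room to fall.

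Timp2 lay higher in every HoxA9AA/Meis1 marrow. TIMP-2 inhibits active metalloproteinases and also helps the membrane enzyme Mmp14 to activate the Mmp2 precursor. It measured 8.87, 8.37 and 8.36 in HoxA9AA replicates 1, 2 and 3, against 7.30, 7.68 and 7.35 in HoxA9wt replicates 1, 2 and 3. The groups were 0.68 apart at their nearest mice, and HoxA9AA replicate 2 was as high as replicate 3, unlike for Mmp8. The means were 8.53 ± 0.29 and 7.44 ± 0.21 (SD, n = 3 each), a difference of 1.09 ± 0.18 (SE) or 2.13-fold. Its unadjusted p of 0.000643 ranked 5 among all genes, and it did not pass (limma, adjusted p = 0.731). By the size of its difference it ranked 67 from the top.

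The promoter of Timp2 is shown because this gene kept its groups furthest apart among the 10. It lies at chr11:118355412-118355661 (GRCm38.p6, minus strand, RefSeq), and none of the 6 motifs above was found in it, so that it has no capitals.
Timp2: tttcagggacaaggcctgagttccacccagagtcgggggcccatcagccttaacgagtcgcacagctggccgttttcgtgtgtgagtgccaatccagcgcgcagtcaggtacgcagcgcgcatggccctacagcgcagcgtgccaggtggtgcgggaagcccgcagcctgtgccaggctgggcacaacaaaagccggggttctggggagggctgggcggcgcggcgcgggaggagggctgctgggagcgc
Its GC content was 68.0%, against 44.8% for Mmp8, 40.4% for Mmp13 and a median of 52.4% over all windows. The 5 measured genes on each side of Timp2 had a median difference of 0.10. Cep295nl, which lies within the span of Timp2, differed by 0.07. Lgals3bp, which encodes a secreted glycoprotein, differed by 1.18, with 8.67, 7.38 and 8.80 in HoxA9AA/Meis1 against 7.34, 6.76 and 7.21 in HoxA9wt/Meis1.

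Some other cell-type lists had mean levels that kept the groups apart. The mean over 10 endothelial genes was 6.64 to 6.69 in HoxA9AA/Meis1 and 6.52 to 6.59 in HoxA9wt/Meis1, with 7 of the 10 higher. Pecam1, a surface protein that leukocytes also carry, made that gap, with 10.88, 9.87 and 10.94 against 9.84, 8.96 and 9.32, and without it the other 9 genes averaged 6.22, 6.28 and 6.20 against 6.17, 6.25 and 6.28. Tek and Esam had groups apart towards lower values (4.8% of all genes did), by only 0.01 and 0.04, and both were above background on no array. Of the list, 5 genes were above background on all arrays and 1 on some. The other 4, among them the receptor genes Kdr and Tek, were above it on no array. The B cell list, given above, had 10 of 10 higher means (53.6% of all genes had one), but 5 of its genes were above background on no array. The mean over 10 erythroid genes was 6.59, 6.54 and 6.47 in HoxA9AA/Meis1, against 6.60, 7.87 and 6.83 in HoxA9wt/Meis1, with 10 of 10 lower. HoxA9wt replicate 2 stood apart there and was highest for 9 of the 10 genes. Their part in the Timp2 values was not tested.

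Timp1 and Timp3 showed no such pattern. Timp1, the inhibitor that binds the Mmp9 precursor, was below the background limit on all 6 arrays, with 5.98, 6.01 and 6.02 in HoxA9AA/Meis1 and 5.85, 6.07 and 5.98 in HoxA9wt/Meis1. Its difference of 0.04 ± 0.09 (SE) is one between background values, and it was −0.02 without HoxA9wt replicate 1. Timp3, whose protein is held in the matrix, measured 6.94, 6.64 and 6.41 against 6.44, 6.74 and 6.68, and was above background on 4 arrays. The direction of its difference (0.04 ± 0.16, SE) turned when HoxA9AA replicate 1 or HoxA9wt replicate 1 was left out (−0.10 and −0.05).

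Among the gelatinases, Mmp9 lay higher in HoxA9AA/Meis1 and Mmp2 hardly differed. Mmp9 measured 7.87, 8.36 and 7.68 in HoxA9AA replicates 1, 2 and 3, against 7.60, 7.34 and 6.46 in HoxA9wt replicates 1, 2 and 3. The groups were only 0.08 apart, and HoxA9wt replicate 3, the mouse low in Ngp and Ltf, was below background. The means were 7.97 ± 0.35 and 7.13 ± 0.60 (SD, n = 3 each), a difference of 0.84 ± 0.32 (SE; limma, adjusted p = 0.731). Without HoxA9wt replicate 3 it was 0.50, so that this mouse moved the value by over 1.5 times. The 10 measured neighbours of Mmp9 on chromosome 2 had a median difference of −0.02, and medians of −0.12, −0.07 and −0.11 in HoxA9AA replicates 1, 2 and 3 relative to the HoxA9wt mean.

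Mmp2, gelatinase A of stromal cells, measured 6.92, 6.77 and 6.75 in HoxA9AA/Meis1 and 6.56, 6.69 and 6.86 in HoxA9wt/Meis1, just above background on all arrays (difference 0.11 ± 0.11, SE; limma, adjusted p = 0.897). Of 14 measured stromal and osteoblast genes 5 were above background on all arrays, 4 on some and 5 on none. Among those on none was the matrix gene Lum, at 4.39 to 4.61 in HoxA9AA/Meis1 and 4.39 to 4.54 in HoxA9wt/Meis1. Cxcl12, above background on all arrays, differed by 0.04. Pdgfrb, above it on 5 arrays, measured 8.71, 6.69 and 8.15 in HoxA9AA/Meis1 against 6.82, 6.56 and 6.91 in HoxA9wt/Meis1. Its groups overlapped (difference 1.09 ± 0.49, SE; limma, adjusted p = 0.731). Of the 14 genes, 7 had a higher and 7 a lower mean. The mean over the list was 6.51 to 6.59 in HoxA9AA/Meis1 and 6.36 to 6.56 in HoxA9wt/Meis1.

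The membrane-bound enzymes lay near background. Mmp14, which cuts collagen at the cell surface, measured 6.71, 6.68 and 6.84 in HoxA9AA/Meis1 and 6.70, 6.92 and 6.84 in HoxA9wt/Meis1 (difference −0.08 ± 0.10, SE; limma, adjusted p = 0.926). Mmp25, a membrane-anchored enzyme of leukocytes, measured 6.84, 6.88 and 6.56 against 6.42, 6.79 and 6.33 (0.25 ± 0.15, SE; adjusted p = 0.803). The groups overlapped in both genes. Mmp19, an enzyme of basement membrane proteins, was above background on all arrays and nearly level, with 7.64, 7.88 and 8.08 against 8.06, 8.01 and 7.81 (−0.09 ± 0.14, SE; adjusted p = 0.940), and its difference was 0.02 without HoxA9AA replicate 1.

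**Figure D3:**
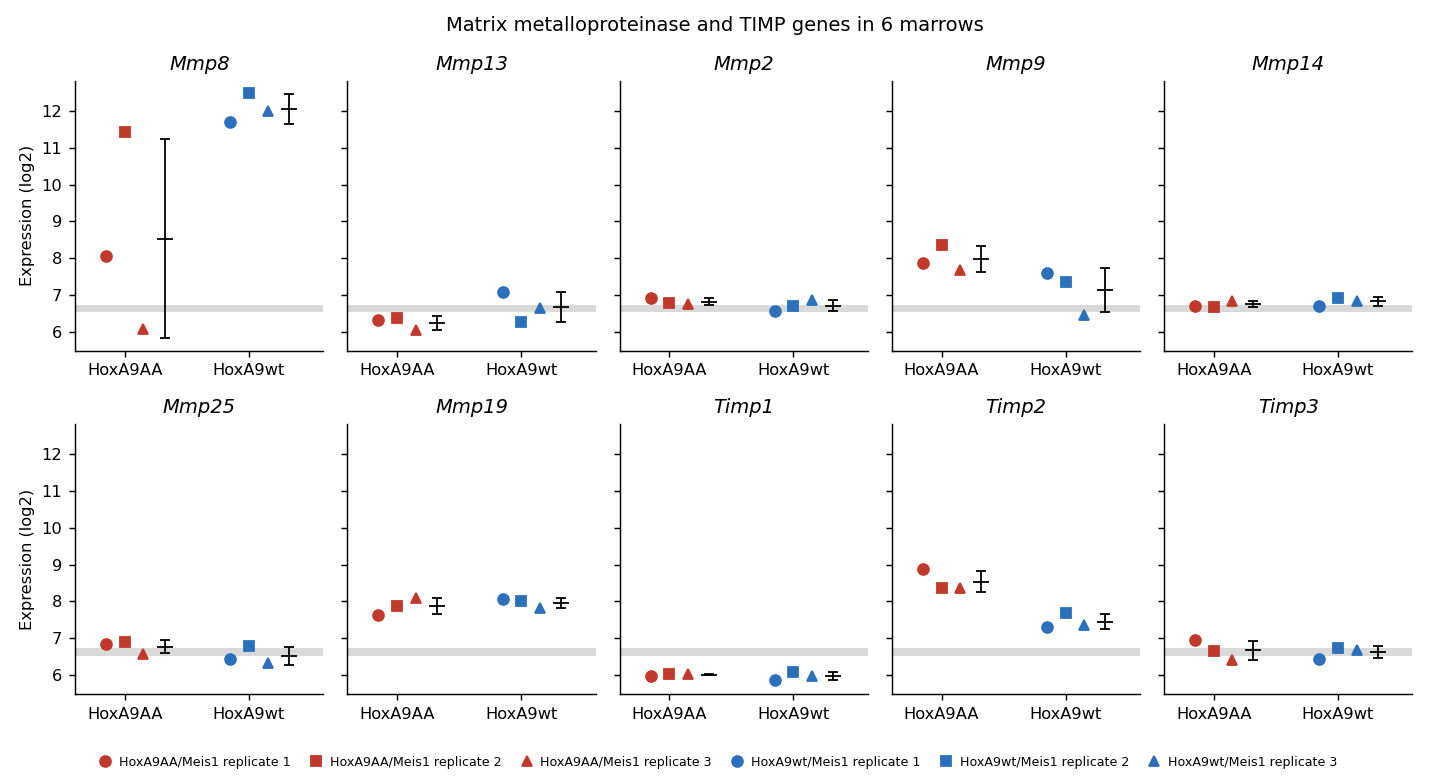
Expression (log2, vertical axis) of the 10 genes in the HoxA9AA/Meis1 mice (left in each panel) and the HoxA9wt/Meis1 mice (right); symbols are single mice, bars the mean ± SD (n = 3) and the grey band the range over arrays of the background limit (6.52 to 6.72). Mmp8 spreads widely in HoxA9AA/Meis1 (SD 2.71), Timp2 keeps the groups 0.68 apart, and most others lie in or near the band.

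Mmp8 was 1 of 4 of the 10 genes that varied more among the HoxA9AA mice, where 70.7% of all genes did so. The median SD over all genes was 0.17 in HoxA9AA/Meis1 and 0.11 in HoxA9wt/Meis1. None of the other 9 genes lay near Mmp8 by the distance used above, and the nearest, Mmp13, stood at rank 1205. Timp2 at rank 19697 and Mmp9 at rank 18913 of 19938 genes lay near the far end, as both differed in the other direction. The distance is not scaled to the size of change, so that a dim or level gene could not come near Mmp8 whatever its shape.

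The wider family was largely dim and showed few differences. Of 23 matrix metalloproteinase genes on a list drawn from general knowledge 22 were measured, 11 with a higher and 11 with a lower mean and a median difference of −0.01. The groups were apart towards lower values for Mmp8, Mmp10 and Mmp27 (4.8% of all genes were) and towards higher values for Mmp9 (6.6% of all genes). Of the 22 genes 9 were above background on no array. Mmp10, a stromelysin, was one of them and differed by −0.15. Mmp3, also a stromelysin, differed by −0.16 and Mmp28 by 0.13, with overlapping groups.

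Of 8 inhibitor genes 5 had a higher mean (median difference 0.04), and Timp2 was the only one with groups apart (6.6% of all genes were, towards higher values). Timp4 differed by −0.17, the membrane-anchored inhibitor gene Reck by 0.09 and the broad protease inhibitor gene A2m by −0.06. Tfpi2 stood at 8.27 in HoxA9AA replicate 1, against 6.67 and 6.59 in replicates 2 and 3 and 6.66 to 6.99 in the HoxA9wt mice. None of these 30 genes passed (0 with an adjusted p under 0.05). By limma, 4 had an unadjusted p under 0.05, where 4.15% of all genes had one towards higher and 2.59% towards lower values.

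**Figure D4:**
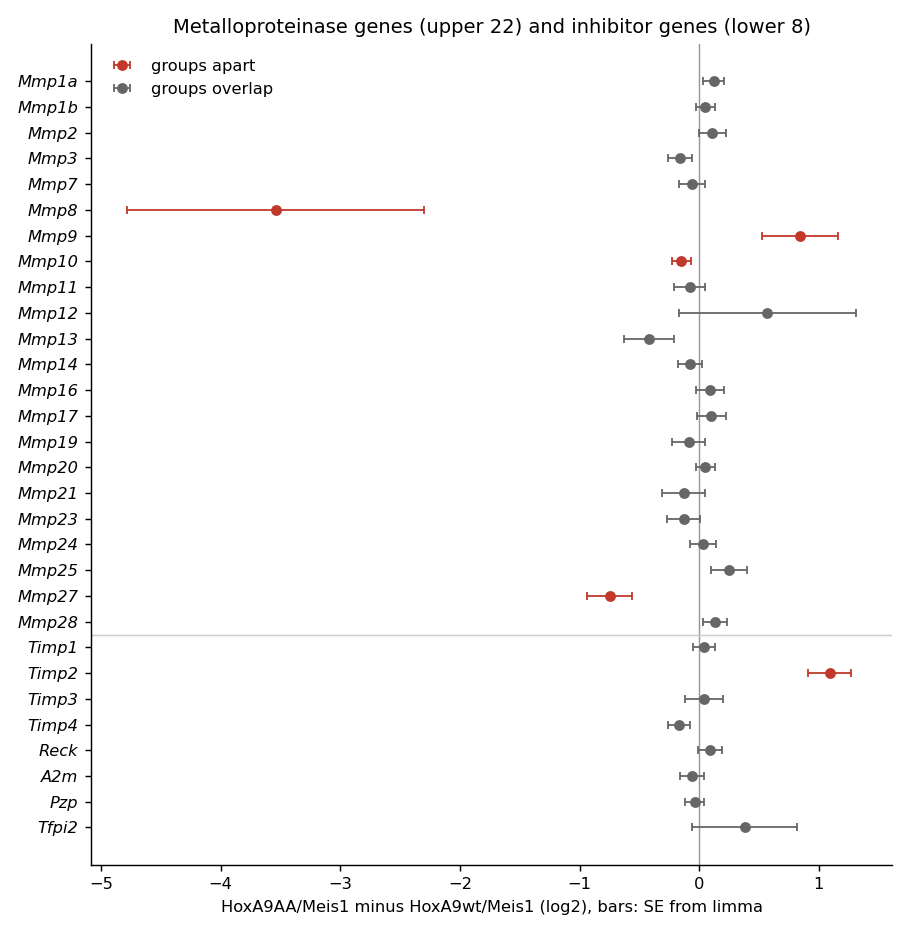
Difference HoxA9AA/Meis1 minus HoxA9wt/Meis1 (log2, horizontal axis) with SE bars from limma for 22 metalloproteinase and 8 inhibitor genes (vertical axis); red marks genes whose groups did not overlap. Mmp8 at −3.54, Timp2 at 1.09, Mmp9 at 0.84 and Mmp27 at −0.75 lie furthest from 0 among the red genes.

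Genes tied to metalloproteinase activation, not all of them activating enzymes, went both ways. Of 15 measured genes of activation and the plasminogen system 8 had a higher and 7 a lower mean (median difference 0.03), and none passed. Plaur, the receptor that gathers urokinase at the cell surface, measured 7.87, 8.20 and 7.93 in HoxA9AA/Meis1 and 8.94, 8.22 and 9.09 in HoxA9wt/Meis1, only 0.02 apart (difference −0.75 ± 0.24, SE; limma, adjusted p = 0.731). Bsg, a surface protein known to induce metalloproteinases in neighbouring cells, measured 10.12, 9.72 and 10.20 against 9.70, 9.62 and 9.51, also 0.02 apart (0.40 ± 0.14, SE; adjusted p = 0.731). Plaur was the only gene of this list with groups apart towards lower values (4.8% of all genes were). Bsg was the only one towards higher values (6.6% of all genes). The proprotein convertase gene Pcsk7 differed by 0.23 and Prtn3, a neutrophil serine protease gene, by 0.52, with overlapping groups.

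Of 31 measured ADAM and ADAMTS genes, which encode related metalloproteinases, 20 had a lower mean (median difference −0.04) and none passed. Adam9 measured 7.90, 9.09 and 8.39 in HoxA9AA/Meis1 and 9.31, 9.24 and 9.12 in HoxA9wt/Meis1 (difference −0.76 ± 0.28, SE; limma, adjusted p = 0.731). The groups were 0.03 apart, and HoxA9AA replicate 2 was again nearest to the HoxA9wt mice. The shedding enzymes Adam10 and Adam17 differed by −0.45 and −0.10, Adam15 by −0.21 and Adamts10 by 0.26. Adam17 was the only other gene of this list with groups apart, by 0.02. Of all genes, 4.8% were apart towards lower values.

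Among 23 measured genes of matrix proteins that these enzymes cut, 13 had a higher and 10 a lower mean (median difference 0.01). Vcan, the gene of the proteoglycan versican, measured 8.09, 11.65 and 8.47 in HoxA9AA replicates 1, 2 and 3, against 11.77, 12.10 and 11.84 in the HoxA9wt mice, 0.12 apart (difference −2.50 ± 0.89, SE; limma, adjusted p = 0.731). No other gene of this list had groups apart (4.8% of all genes were, towards lower values). Vcan and Fn1 were the only genes of this list with an unadjusted p under 0.05 by limma, where 2.59% of all genes had one towards lower values. Both were low in HoxA9AA replicates 1 and 3, and Fn1 had been picked above for its likeness to Mmp8. The laminin gene Lamc1 differed by −0.54 and the decorin gene Dcn by −0.24, and the fibrillar collagen genes Col1a1 and Col3a1 by −0.03 and 0.04.

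Without HoxA9AA replicate 2, the mouse nearest to the HoxA9wt mice for Mmp8, limma called 48 genes (0.241% of all). None of the 10 genes was among them. Mmp8 then differed by −4.99 (adjusted p = 0.0572) and Timp2 by 1.17 (adjusted p = 0.0937). Vcan was called (−3.62, adjusted p = 0.00827) and Fn1 was not (−4.16, adjusted p = 0.0743). Of the 19 monocyte and macrophage genes 3 were called, Msr1, Mertk and Clec4a3, and Msr1 and Clec4a3 are among the 8 genes nearest to Mmp8. Those 8 were picked for a pattern with HoxA9AA replicate 2 near the HoxA9wt mice. Leaving that mouse out therefore favours calling such genes, and the overlap is no independent support.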

How the data were processed

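Bone marrow RNA of 6 mice was measured, 1 array per mouse. The authors deposited log2 values, and the tools oligo and RMA are named per the submitters' processing notes. RMA corrects background, normalizes arrays by quantiles and summarises probe sets, which can narrow differences of dim genes. The log2 scale was read from the range of values, with tool versions and genome build not given in the sources used here. Probe sets were named from the platform annotation: 21789 of 35556 had 1 symbol. Those with several symbols (1621) or none listed (12146) were not used. The brightest probe set per gene gave 19938 genes, and each of the 10 genes had 1 probe set.

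A two-sided limma fit (version 3.58.1, R 4.3.3; lmFit and eBayes, no trend) set HoxA9AA/Meis1 against HoxA9wt/Meis1 with no pairing. The p-values were adjusted over all genes by Benjamini-Hochberg, with a threshold of 0.05, and the fit was tested on simulated data. Members and lists were chosen with earlier results of these data known; lists were drawn from general knowledge. Named genes beside the 10 were, per list of proteinases, inhibitors, activators and substrates, up to 4 with the smallest p and any above background with groups apart, and for late granule genes 6 nearest to Mmp8. The 8 nearest genes overall left out predicted genes, and 5 neighbours on each side were taken. Ltf, Ngp, Camp, the other granule genes drawn beside them, Col1a1, Col3a1, Cxcl12, Pdgfrb, Lum and the neighbours of Timp2 were named after their values were seen. So were Pecam1, Kdr, Tek, Esam, Vpreb3, C1qc and Vcam1. Marker lists also covered osteoclasts (median difference −0.02 over 9 genes), megakaryocytes (−0.01 over 9), mast cells (0.06 over 10), eosinophils (0.00 over 6) and T and NK cells (0.04 over 9). Gene order and promoters came from RefSeq tables of GRCm38.p6; 7 of the 10 genes matched a promoter, and Mmp2, Mmp9 and Mmp19 did not. Array values carry no counts, and the number of mice limits precision. Alternatives were a replicate block, leaving out each array, a filter on dim genes, averaging all probe sets for each gene, centring on the array median, a further quantile normalization, another variance model and array weights.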

Additional observations from a re-analysis of the deposited data

How the results depend on the processing

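The count of 0 genes past the threshold held in every setting with all 6 arrays, and leaving out 1 array gave 0 to 48 genes (48 without HoxA9AA replicate 2, 1 without HoxA9wt replicate 3, otherwise 0). Mmp8 ranged from −4.99 to −2.31 and Timp2 from 0.92 to 1.21 when 1 array was left out, and from −3.54 to −3.19 and 1.01 to 1.12 in the other settings. The direction turned for Mmp19 (0.02 without HoxA9AA replicate 1), Timp1 (−0.02 without HoxA9wt replicate 1) and Timp3 (−0.10 without HoxA9AA replicate 1, −0.05 without HoxA9wt replicate 1, −0.04 with array weights), and the cause was not tested. Leaving out 1 array gave −0.20 to 0.02 for Mmp19, −0.02 to 0.09 for Timp1 and −0.10 to 0.17 for Timp3. With genes over the median brightness only, the list medians rested on fewer genes, with −0.11 over 4 metalloproteinase genes, 0.73 over 2 inhibitor genes and −0.12 over 12 ADAM genes. Leaving out 1 array gave −0.07 to 0.10 for the inhibitor list and −0.16 to 0.60 for late granule genes. With the replicate number as a block the count was again 0 and the Mmp8 difference −3.54 (adjusted p = 0.891). Same-numbered mice did not deviate together, with correlations over genes of −0.208, −0.103 and −0.013 for numbers 1, 2 and 3, so that no pairing was assumed. Genes near background, which include Timp1 and Mmp13, give no firm difference.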
